A study of Homo sapiens with 12 samples.

Results

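The hnRNP and SR splicing factors were followed in an RNA-seq series of HEK293T cells, a human embryonic kidney line that carries the SV40 large T antigen. The members were all protein-coding genes whose symbol begins with HNRNP, SRSF and a digit, SRRM, TRA2, RBFOX or PTBP, which gave 50 of 19863 coding genes. Of these, 43 had a group mean over 0.5 FPKM (fragments per kilobase of exon, scaled to the size of the library) somewhere in the series and were tested, among 12830 coding genes tested in all. The series holds 6 groups of 2 libraries, and all cells were transfected with an siRNA by lipofection. The controls received a control siRNA (siCTL) and carry the label WT. The other groups received an siRNA against CARM1, CHD4, HDAC2, GATAD2A or KDM1A (siCARM1, siCHD4, siHDAC2, siGATAD2A and siKDM1A) and are labelled as knock down of that gene. CARM1 is a protein arginine methyltransferase, CHD4, HDAC2 and GATAD2A are subunits of the NuRD chromatin remodelling complex, and KDM1A is a histone demethylase that associates with it. The labels do not say which siRNA was used where several exist, nor whether the 2 libraries of a group came from separate cultures, so p-values measure the spread between these libraries, which may be technical.

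Pre-mRNA splicing is steered by proteins that bind exons and introns and guide the spliceosome to or away from a splice site. SR proteins (SRSF genes) carry a domain rich in arginine and serine and mostly promote the use of exons, whereas hnRNP proteins coat nascent RNA and often, though not always, lead to skipping. TRA2 proteins are relatives of the SR proteins, SRRM proteins are large coactivators, PTBP proteins bind pyrimidine-rich tracts, and RBFOX proteins bind a short motif beside alternative exons. Many of these genes control their own mRNA through exons whose inclusion leads to decay of the transcript. CARM1 is known to methylate splicing factors at the protein level, which a measurement of mRNA does not see. The comparisons below address whether the mRNA of these factors differs after loss of CARM1 or of a NuRD-associated protein.

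The total count on genes of the strand used was 19308315 to 28648657 per library. The siRNA targets were lower in their own knockdown, in FPKM from 28.8 and 28.3 in siCTL to 5.70 and 5.29 for CARM1 in siCARM1, and from 3.11 and 3.12 to 2.10 and 2.19 for CHD4 in siCHD4. HDAC2, GATAD2A and KDM1A reached 0.197, 0.298 and 0.166 of the siCTL level in their own knockdown, whereas CHD4 reached 0.689 of it. Fragments that fall on several genes are not counted. Exonic bases that CHD4 shares with other genes were not computed, so their part in its level was not tested. CHD4 was also lower in siCARM1, at 2.56 and 2.42 FPKM or 0.801 of the siCTL level (log2 fold change -0.32, SE 0.0705, adjusted p = 0.00039 by edgeR). In siCHD4 the GATAD2A level was 50.1 and 49.6 FPKM against 24.5 and 22.4 in siCTL. Of 7 markers of HEK293 cells, KRT8, KRT18, VIM, CDH2 and LIN28B were expressed and NEFM and PAX2 stayed at or below 0.35 FPKM. Of the 5 tested ones, 4 were higher than siCTL in both siCARM1 and siCHD4, 5 in siKDM1A, 2 in siHDAC2 and 1 in siGATAD2A (with 2 lower), where 14.9%, 24%, 14.2%, 10.6% and 15.7% of all genes tested were higher, and VIM ranged from 49.2 to 145 FPKM. The part of these shifts in the results below was not tested, and in bulk RNA fewer cells of a kind and less RNA per cell cannot be told apart. Of the markers of other cells, PTPRC, ALB, ESR1 and COL1A2 stayed at or below 0.126 FPKM, and PECAM1 was not matched. COL1A1, the 1 tested gene among them, lay between 8.71 and 14.5 FPKM and was lower than siCTL in siCARM1 (-0.47), siCHD4 (-0.41), siHDAC2 (-0.35) and siGATAD2A (-0.46), with 0.14 in siKDM1A. Its part in the results was not tested either.

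HNRNPF, HNRNPH3 and HNRNPA3 carried the most recurrent changes or the clearest change in siCARM1, and the sequence around their start sites is shown for orientation. HNRNPF (ENSG00000169813.16) lies at chr10:43881065-43904634, HNRNPH3 (ENSG00000096746.17) at chr10:70090931-70102950 and HNRNPA3 (ENSG00000170144.21) at chr2:178077422-178088687 of GRCh37. The windows come from RefSeq on GRCh38.p14 and run from 250 bases before to 50 bases after a start site, read 5′ to 3′ on the strand of the gene. They are the first window listed for HNRNPF (chr10:43408808-43409107, minus strand, of 2 windows), for HNRNPH3 (chr10:68331443-68331742, plus strand, of 3 windows) and for HNRNPA3 (chr2:177212544-177212843, plus strand). Capitals mark 4 motifs on either strand. The GC box was searched as GGGCGG. The box named for its letters was searched as CCAAT. The E-box was searched as CACGTG. The ETS site was searched as CCGGAAG.
HNRNPF: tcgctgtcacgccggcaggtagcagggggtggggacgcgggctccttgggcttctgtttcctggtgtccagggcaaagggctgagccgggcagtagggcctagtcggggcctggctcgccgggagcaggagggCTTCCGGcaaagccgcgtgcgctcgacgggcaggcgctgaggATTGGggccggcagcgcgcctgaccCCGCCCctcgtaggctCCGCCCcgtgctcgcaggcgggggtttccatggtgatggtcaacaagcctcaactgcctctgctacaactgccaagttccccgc
HNRNPH3: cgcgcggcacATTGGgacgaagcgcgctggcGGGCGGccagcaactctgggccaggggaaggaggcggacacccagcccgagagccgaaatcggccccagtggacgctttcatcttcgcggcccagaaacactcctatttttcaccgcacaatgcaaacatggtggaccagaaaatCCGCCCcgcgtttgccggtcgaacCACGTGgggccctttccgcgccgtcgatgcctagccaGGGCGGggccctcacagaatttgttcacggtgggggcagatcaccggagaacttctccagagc
HNRNPA3: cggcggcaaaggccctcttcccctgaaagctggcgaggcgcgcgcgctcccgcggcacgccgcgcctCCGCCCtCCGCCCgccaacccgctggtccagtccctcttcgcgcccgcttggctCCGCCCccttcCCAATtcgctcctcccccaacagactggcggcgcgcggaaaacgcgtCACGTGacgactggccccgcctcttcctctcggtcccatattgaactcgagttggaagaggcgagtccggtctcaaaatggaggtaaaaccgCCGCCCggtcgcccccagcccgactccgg
All 3 windows shown hold a CCAAT box and at least 2 GC boxes, and those of HNRNPH3 and HNRNPA3 also hold an E-box. Of the windows not shown, window 2 of HNRNPF holds a CCAAT box and 2 GC boxes. Window 2 of HNRNPH3 holds 1 GC box but no CCAAT box or E-box, and its window 3 holds none of the 4 motifs. A CCAAT box and a GC box were found together in 17 of the 76 member windows. The share of all coding windows with both was not computed, so this count has nothing to be compared with. Whether these motifs go with the changes was not tested. Across the family, 44 members had 76 windows. A GC box was in 53.9% of them against 56.3% of 22199 windows of coding genes, a CCAAT box in 36.8% against 34.7%, an E-box in 13.2% against 8.34%, and an ETS site in 9.21% against 12.8%. Windows with a TATA box, searched as TATAAA, were 13.2% against 9.47%. They include windows 1, 2, 3 and 6 of RBFOX3, which was not tested for expression. Its windows 1 and 2 overlap and hold the same TATA box. A gene with several windows counts several times in all these shares. Those with the letters AAGATGG of a YY1 site were 2.63% against 6.04%. A CRE, searched as TGACGTCA, was in 0 of 76 against 2.26%. Motif matches overlapped in 2 of the 76 windows, in both as CCAAT boxes on opposite strands, and in none of the 3 shown.

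The family was highly expressed. The median siCTL level of the 43 tested members was 29.2 FPKM against 6.87 FPKM over all genes tested, and 38 members lay above that overall median. HNRNPF had the highest level, 226 FPKM, followed by HNRNPAB and SRSF2, both at 121 FPKM, SRRM2 at 106 FPKM, HNRNPK at 99.1 FPKM and PTBP1 at 98.4 FPKM. HNRNPAB and SRSF2, and HNRNPK and PTBP1, are neighbours in this order whose siCTL libraries overlapped. The lowest tested members were SRRM3 at 0.685 FPKM, PTBP2 at 1.42 FPKM, HNRNPA1L3 at 1.73 FPKM and HNRNPA1L2 at 1.93 FPKM. All exonic bases of HNRNPA1L2 are shared with another gene on the same strand. Fragments on both genes are not counted, and the part of this in its level was not tested. The median of the hnRNP genes was 32.5 FPKM and that of the SRSF genes 23.1 FPKM. Together, the 50 members took 1.02% to 1.12% of the counts of a library. The exons of a tested member had a median length of 6540 bases (5330 over all genes tested), a median of 13 annotated transcripts (8 over all), and a median GC content of the longest transcript of 41.6% (48.4% over all).

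Of the 7 members that were not tested, HNRNPCL2 and the readthrough gene HNRNPUL2-BSCL2 had a count of 0 in all 12 libraries. All exonic bases of HNRNPUL2-BSCL2 are shared with HNRNPUL2 and BSCL2, and a fragment on several genes is not counted. HNRNPCL1 had at most 2 counts in a library, RBFOX1 at most 4, RBFOX3 at most 21, SRRM5 at most 23 and SRRM4 at most 34. Of the fragments on RBFOX3 and SRRM5, 86.1% and 96.8% lay on the opposite strand. RBFOX1, RBFOX3, SRRM3 and SRRM4 are known from neurons, and of these SRRM3 alone was tested.

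**Figure D1:**
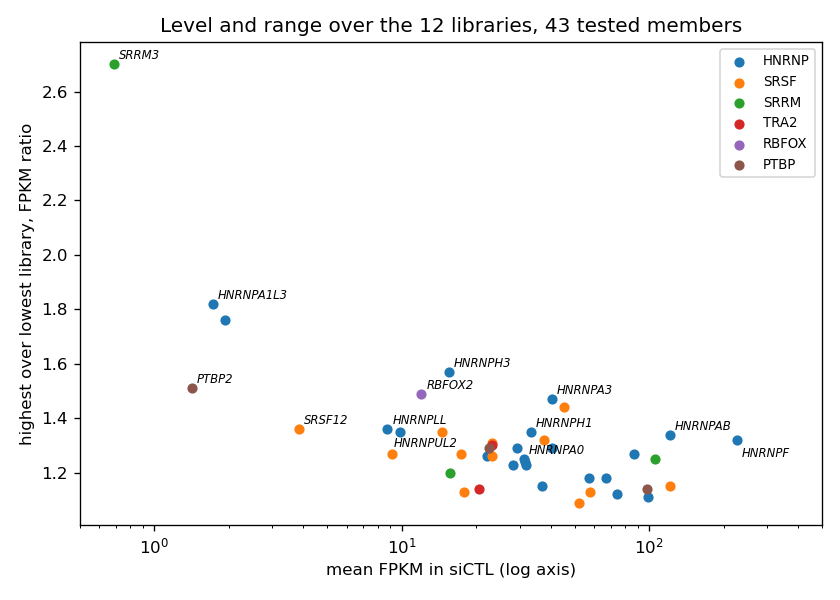
The mean FPKM in siCTL of each tested member (log axis) is set against the ratio of its highest to its lowest library, with colours for the subfamilies and names for the members that passed the test in a comparison with siCTL. SRRM3, at 0.685 FPKM, had the largest ratio, 2.7, and 38 of 43 members had a ratio under 1.5.

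Levels varied little between libraries. The ratio of the highest to the lowest of the 12 libraries was 1.27 at the median of the members and 1.54 at the median of all genes tested. Members and all genes were not matched for level here or below, and the part of level in these comparisons was not tested. SRSF7 had the smallest ratio, 1.09, and SRRM3 the largest, 2.7. An F test over the 6 groups (edgeR, adjusted p of 0.05 or less, no fold minimum) called 35 of 43 members, 81.4%, against 91.1% of all genes tested. The 8 members that did not pass it were HNRNPA1L2, HNRNPA1L3, HNRNPK, PTBP1, SRSF3, SRSF5, SRSF7 and TRA2B, named after their values were seen.

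**Figure D2:**
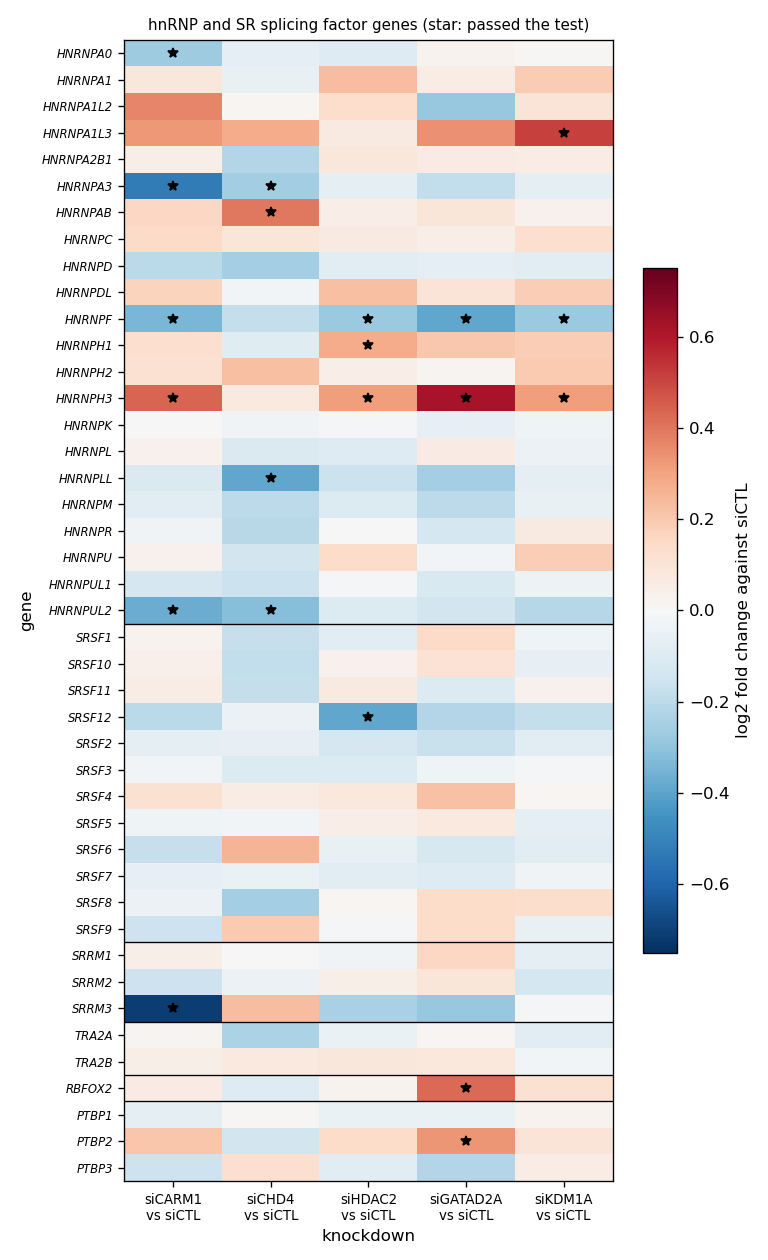
Colours give the log2 fold change of the 43 tested members (rows, by subfamily) in each knockdown against siCTL (columns), and a star marks an adjusted p of 0.05 or less with a fold of at least 1.2. HNRNPF is lower and HNRNPH3 higher in 4 of 5 columns, and 1 star falls on the SRSF genes.

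In each comparison with siCTL, a gene was called at an adjusted p of 0.05 or less by edgeR's quasi-likelihood test and a fold of at least 1.2. In siCARM1, 5 members were lower and 1 was higher, against 14.5% and 14.9% of all genes tested. In siCHD4, 3 were lower and 1 was higher (24.9% and 24% of all genes). In siHDAC2, 2 were lower and 2 higher (9% and 10.6%). In siGATAD2A, 1 was lower and 3 were higher (18.2% and 15.7%). In siKDM1A, 1 was lower and 2 were higher (11.5% and 14.2%). In these 5 comparisons, 13 of 43 members (30.2%) were called at least once, against 73.0% of all genes tested, and 21 of 215 member values (9.77%) were called, against 31.5%. The median absolute log2 fold change was 0.10 for members and 0.19 for all genes. The comparisons share the 2 siCTL libraries. No member was lower in 1 knockdown and higher in another.

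The genes of the hnRNP F/H group, which bind runs of G in RNA, held the changes that recurred most often. HNRNPF was at 227 and 226 FPKM in siCTL, 183 and 175 in siCARM1, 201 and 199 in siCHD4, 185 and 188 in siHDAC2, 172 and 173 in siGATAD2A, and 188 and 185 in siKDM1A. All 10 knockdown libraries lay below both siCTL libraries, which the comparisons share. In a single knockdown, 33.5% to 41.0% of all genes tested had both libraries below siCTL. SRSF7, which did not pass the F test, also lay below siCTL in every knockdown. Its log2 fold change was -0.34 in siCARM1 (SE 0.0351, adjusted p = 2.6e-09), -0.28 in siHDAC2 (SE 0.0351, adjusted p = 2.3e-07), -0.39 in siGATAD2A (SE 0.0352, adjusted p = 9.3e-11) and -0.28 in siKDM1A (SE 0.0351, adjusted p = 1.3e-07). In siCHD4 the value was -0.18, under the fold minimum (adjusted p = 5.7e-05). Its change in siCHD4 differed from that in siGATAD2A by 0.21 on the log2 scale, under the fold minimum (SE 0.0351, adjusted p = 4.6e-06).

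HNRNPH3 moved the other way. It was at 15.2 and 15.8 FPKM in siCTL, 20.0 and 21.9 in siCARM1, 16.8 and 15.8 in siCHD4, 19.4 and 19.2 in siHDAC2, 23.9 and 23.7 in siGATAD2A, and 18.7 and 19.9 in siKDM1A. All 10 knockdown libraries lay above both siCTL libraries, in siCHD4 by the smallest margin. In a single knockdown, 33.1% to 41.8% of all genes tested had both libraries above siCTL. The log2 fold change was 0.43 in siCARM1 (SE 0.0538, adjusted p = 8.6e-08), 0.62 in siGATAD2A (SE 0.0534, adjusted p = 3.5e-11), 0.32 in siHDAC2 (SE 0.0542, adjusted p = 3.1e-05) and 0.32 in siKDM1A (SE 0.0542, adjusted p = 2.1e-05). In siCHD4 it was 0.07, with a 95% interval of -0.04 to 0.18. The difference between siGATAD2A and siCHD4 was itself past the test, at 0.55 on the log2 scale (SE 0.0525, adjusted p = 1.7e-10), as were those between siGATAD2A and siHDAC2 (0.30, adjusted p = 1.6e-05) and between siGATAD2A and siKDM1A (0.30, adjusted p = 1.3e-05). The change in siCARM1 differed from that in siGATAD2A by -0.18, under the fold minimum (SE 0.0514, adjusted p = 0.00324). After a correction for GC content the values in siHDAC2 and siKDM1A fell to 0.26 and 0.25, under the fold minimum, while those in siCARM1 and siGATAD2A still passed.

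The paralogues of this group, named after their values were seen, were HNRNPH1 and HNRNPH2. HNRNPH1 was at 34.4 and 32.2 FPKM in siCTL and at 40.7 and 39.9 in siHDAC2, the comparison in which it was called (log2 fold change 0.28, SE 0.0437, adjusted p = 9.6e-06). That call was lost without siCTL replicate 2 (0.23), without siHDAC2 replicate 1 (0.26) and with the GC correction (0.25). The values of HNRNPH1 in the other knockdowns ran from -0.09 to 0.20, and HNRNPH2 lay between 0.02 and 0.23 in the 5 comparisons with no call. HNRNPF and HNRNPH3 were thus called in opposite directions in the same 4 knockdowns.

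**Figure D3:**
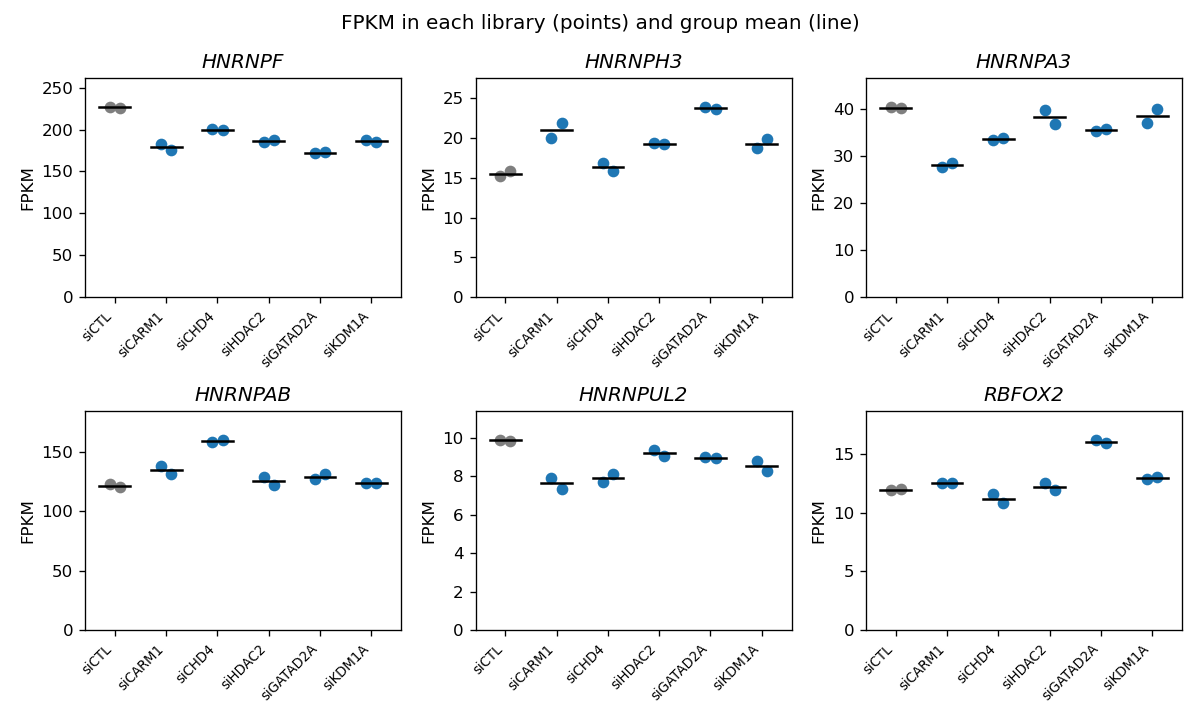
FPKM of 6 members in each of the 12 libraries, as points, with the mean of each group as a line, siCTL in grey and knockdowns in blue, axes from 0. HNRNPF is lower than siCTL in all knockdown libraries, HNRNPA3 is lowest in siCARM1 (27.6 and 28.6), HNRNPAB is highest in siCHD4 (158 and 160) and RBFOX2 in siGATAD2A (16.2 and 15.9).

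The hnRNP A/B genes encode abundant RNA-coating proteins. HNRNPA3 was at 40.5 and 40.2 FPKM in siCTL and at 27.6 and 28.6 in siCARM1, and at 33.4 and 33.9 in siCHD4, 39.9 and 36.9 in siHDAC2, 35.3 and 35.7 in siGATAD2A, and 37.1 and 40.0 in siKDM1A. Both siCARM1 libraries were below every other library. Its log2 fold change in siCARM1 was -0.52 (SE 0.0450, adjusted p = 6e-11), a level of 0.696 of siCTL. In siCHD4 the change of -0.26 (SE 0.0446, adjusted p = 6e-06) sat at the fold minimum, and RLE size factors, DESeq2, a higher FPKM filter, the GC correction and the fit without siCTL replicate 1 each took it below. HNRNPA3 has 16 named pseudogenes, and fragments that map to several places are not counted. Such fragments were 10.6% of siCTL replicate 1 and 5.44% to 9.19% of the other libraries, and their part in the result was not tested. The call in siCARM1 held under each of the 21 alternatives, with values from -0.58 to -0.50. Of these, no fold minimum could not lose a call, and leaving out libraries of other groups kept both compared groups whole.

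HNRNPA0 also fell in siCARM1, with 26 and 25.7 FPKM against 30.9 and 31.4 in siCTL (log2 fold change -0.27, SE 0.0417, adjusted p = 3.8e-06, named after its values were seen). It dropped under the fold minimum without siCTL replicate 2 (-0.26) and with the filter at 1 FPKM (-0.26). HNRNPAB, which binds RNA and DNA, was at 158 and 160 FPKM in siCHD4 against 123 and 120 in siCTL and 122 to 138 in the other knockdowns (log2 fold change 0.39, SE 0.0413, adjusted p = 9.6e-10). No library of another group reached the siCHD4 level. Its change in siCHD4 exceeded that in siGATAD2A by 0.30 (SE 0.0409, adjusted p = 1.6e-07), in siHDAC2 by 0.34 (SE 0.0411, adjusted p = 1.5e-08) and in siKDM1A by 0.36 (SE 0.0411, adjusted p = 6.2e-09). The difference of siCARM1 and siCHD4 was -0.24, under the fold minimum (SE 0.0409, adjusted p = 6.8e-06). HNRNPA1L3, an HNRNPA1-like gene of low count (59 to 118 per library), was at 2.05 and 1.41 FPKM in siCTL and 2.30 and 2.57 in siKDM1A, where it passed the test (0.51, SE 0.194, adjusted p = 0.0325). That call was lost with DESeq2, with the GC correction and without siCTL replicate 2 or siKDM1A replicate 2. HNRNPA1 and HNRNPA2B1 of this group, and HNRNPC, another abundant hnRNP gene, were called in no comparison, with values from -0.22 to 0.23.

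Of the other hnRNP genes, HNRNPUL2, a relative of the scaffold protein HNRNPU, was at 9.88 and 9.85 FPKM in siCTL, 7.91 and 7.34 in siCARM1, 7.70 and 8.10 in siCHD4, 9.35 and 9.02 in siHDAC2, 8.98 and 8.94 in siGATAD2A, and 8.77 and 8.28 in siKDM1A. All 10 knockdown libraries lay below siCTL, where 33.5% to 41.0% of all genes tested did so in a single knockdown. The changes in siCARM1 (-0.37, SE 0.0632, adjusted p = 1.6e-05) and siCHD4 (-0.32, SE 0.0631, adjusted p = 5.1e-05) passed the test. HNRNPUL2 shares 44.3% of its exonic bases with the readthrough gene named above, on the same strand. HNRNPLL, a regulator of exons in lymphocytes, was at 8.42 and 9.10 FPKM in siCTL and 6.73 and 6.68 in siCHD4, its only call (-0.39, SE 0.0683, adjusted p = 1.1e-05). In the remaining groups it lay between 7.20 and 8.71 FPKM. HNRNPK, a binder of C-rich RNA, had log2 fold changes of -0.06 to 0.003.

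The SR protein genes held few calls against siCTL. Of 60 values over 12 SRSF genes and 5 comparisons, 1 passed the test. It was SRSF12 in siHDAC2, at 3.01 and 2.88 FPKM against 3.89 and 3.80 in siCTL (log2 fold change -0.39, SE 0.0986, adjusted p = 0.00263). SRSF12 was at 3.34 and 3.35 FPKM in siCARM1, 3.91 and 3.54 in siCHD4, 3.35 and 3.25 in siGATAD2A, and 3.27 and 3.53 in siKDM1A, so its siHDAC2 libraries were the lowest of all 12. The other 11 SRSF genes lay between -0.25 and 0.26 on the log2 scale in every comparison. Just inside that range, in siCHD4, were SRSF6 at 0.26, SRSF8 at -0.25 and, among the hnRNP genes, HNRNPD at -0.25, all below the fold minimum. Of the 12 SRSF genes, 9 passed the F test over the 6 groups, beside 81.4% of the 43 members and 91.1% of all genes tested. The SRSF differences between knockdowns given next were named after their values were seen, and pairs that were not called are left out. The share of all genes called in such pairs was not computed. Against siCTL, 48.8% of all genes tested were called in siCHD4. SRSF6 was higher in siCHD4 than in siCARM1 (siCARM1 minus siCHD4 -0.43, SE 0.048, adjusted p = 3.9e-09), siGATAD2A (0.38), siHDAC2 (0.31) and siKDM1A (0.33, largest adjusted p of these 3 = 1.3e-06). SRSF8 was lower in siCHD4 than in siGATAD2A (-0.39, SE 0.0571, adjusted p = 6.3e-07), siKDM1A (-0.39) and siHDAC2 (-0.27, adjusted p = 0.00014). SRSF9 was lower in siCARM1 than in siCHD4 (-0.35, SE 0.0452, adjusted p = 5.2e-08) and siGATAD2A (-0.29, adjusted p = 2.7e-06). SRSF1 (-0.32, adjusted p = 2.4e-06) and SRSF10 (-0.29, adjusted p = 5.8e-06) were lower in siCHD4 than in siGATAD2A, and SRSF12 was higher in siCHD4 than in siHDAC2 (0.34, adjusted p = 0.00283). Against siCTL, SRSF1, the founding member of the family, lay between -0.17 and 0.15. SRSF1 shares 32.7% of its exonic bases with another gene on the same strand, and 13.8% of the fragments on SRSF9 lay on the opposite strand, where GATC covers 43.6% of its exonic bases.

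The TRA2, PTBP and RBFOX genes were few. TRA2A and TRA2B, activators of exon inclusion, were called in no comparison. TRA2A lay at 23.5 and 22.6 FPKM in siCTL and at 18.7 and 20.5 in siCHD4, where the change was -0.24 (SE 0.0583, adjusted p = 0.00072), under the fold minimum. TRA2B lay between 19.6 and 22.3 FPKM over all 12 libraries.

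PTBP1, the general repressor of neuronal exons, lay between 88.9 and 101 FPKM, with no call. Its paralogue PTBP2, which takes over in neurons, was at 1.38 and 1.45 FPKM in siCTL, 1.52 and 1.77 in siCARM1, 1.2 and 1.38 in siCHD4, 1.57 and 1.55 in siHDAC2, 1.75 and 1.82 in siGATAD2A and 1.48 and 1.55 in siKDM1A. It rose in siGATAD2A (0.33, SE 0.0804, adjusted p = 0.00093). The difference of siCHD4 and siGATAD2A was -0.47 (SE 0.0798, adjusted p = 7.2e-06). The differences of siGATAD2A from siCARM1 (siCARM1 minus siGATAD2A -0.12, adjusted p = 0.193), from siHDAC2 (siHDAC2 minus siGATAD2A -0.19, adjusted p = 0.0427) and from siKDM1A (0.23, adjusted p = 0.0145) were not called. PTBP3 was at 21.8 and 23.2 FPKM in siCTL, 24.2 and 24.8 in siCHD4 and 19.1 and 19.5 in siGATAD2A, with no call against siCTL (0.12 and -0.22), but siCHD4 and siGATAD2A differed by 0.34 (SE 0.0462, adjusted p = 1.7e-07).

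RBFOX2, the RBFOX gene expressed in these cells, was at 11.9 and 12 FPKM in siCTL, 12.5 and 12.5 in siCARM1, 11.6 and 10.8 in siCHD4, 12.5 and 11.9 in siHDAC2, 16.2 and 15.9 in siGATAD2A, and 12.9 and 13.0 in siKDM1A. Only siGATAD2A passed the test (0.42, SE 0.0447, adjusted p = 2.6e-09), and both of its libraries were above the other 10. RBFOX2 in siGATAD2A exceeded its level in siCARM1 by 0.36 (adjusted p = 5e-08), in siCHD4 by 0.52 (adjusted p = 1.4e-11), in siHDAC2 by 0.40 (adjusted p = 1e-08) and in siKDM1A by 0.31 (adjusted p = 7.9e-07).

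The SRRM genes encode coactivators, of which SRRM3 and SRRM4 act on microexons in neurons. SRRM1 and SRRM2 had log2 fold changes of -0.16 to 0.15 and no call. SRRM3 was at 0.787 and 0.582 FPKM in siCTL, 0.493 and 0.319 in siCARM1, 0.861 and 0.737 in siCHD4, 0.450 and 0.672 in siHDAC2, 0.615 and 0.496 in siGATAD2A, and 0.711 and 0.640 in siKDM1A. The siCARM1 libraries lay below both siCTL libraries, as they did for 34.2% of all genes tested. Of siHDAC2, 1 library, at 0.450, lay between the 2 siCARM1 libraries. The change in siCARM1 was -0.71 (SE 0.224, adjusted p = 0.00931) with a 95% interval of -1.17 to -0.26. With 46 to 134 counts per library, the call was lost without siCTL replicate 1 (-0.49, adjusted p = 0.153) and without siCARM1 replicate 2 (-0.46, adjusted p = 0.129).

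The knockdown of CARM1 was also set against the mean of the 4 NuRD-associated knockdowns in 1 contrast of the same fit. It called 2 members lower and 0 higher, against 10.3% and 11.8% of all genes tested, and 16 of the 43 members had an unadjusted p under 0.05. With the adjusted p alone, 27.9% of members and 48.1% of all genes tested passed. DESeq2 also called 0 higher. The 2 were HNRNPA3 (-0.37, SE 0.0363, adjusted p = 7.6e-10) and SRRM3 (-0.64, SE 0.179, adjusted p = 0.00385). For HNRNPA3 the single differences were -0.26 against siCHD4, -0.34 against siGATAD2A, -0.45 against siHDAC2 and -0.46 against siKDM1A (largest adjusted p = 9.2e-06), of which the first was under the fold minimum. For SRRM3 they were -0.95 against siCHD4 (adjusted p = 0.00027) and -0.70 against siKDM1A (adjusted p = 0.0115), while -0.43 against siGATAD2A (adjusted p = 0.111) and -0.47 against siHDAC2 (adjusted p = 0.103) did not pass. HNRNPF, called lower in 4 knockdowns, differed by -0.06 in this contrast (95% interval -0.12 to -0.002), and HNRNPH3 by 0.10 (0.02 to 0.19). For 36 members (83.7%, against 46.7% of all genes tested) the 95% interval of the difference lay within 1.2-fold in both directions.

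**Figure D4:**
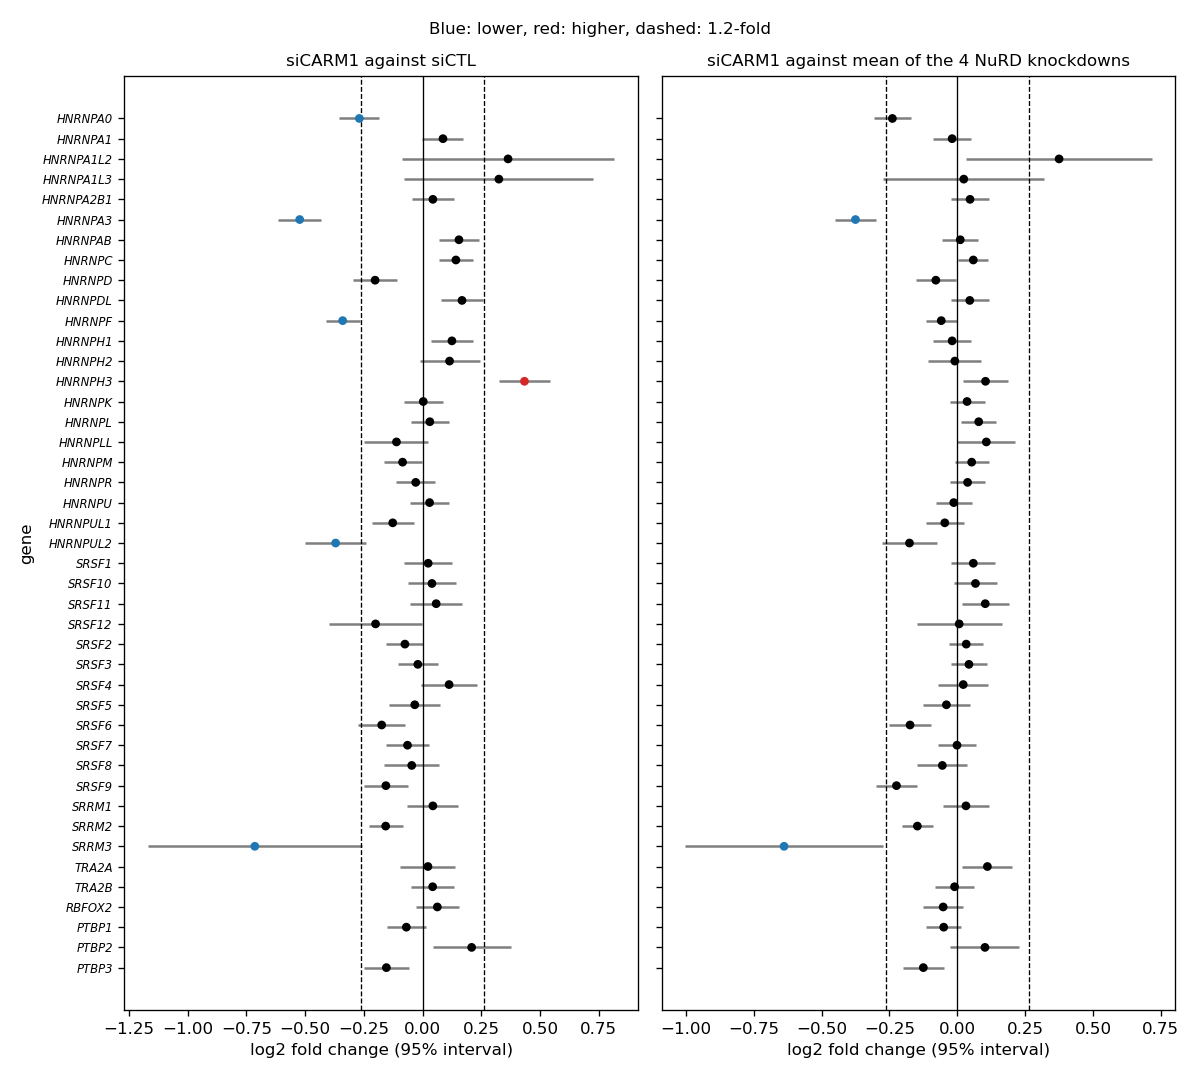
Log2 fold change of each tested member with its 95% interval, in siCARM1 against siCTL (left) and against the mean of the 4 NuRD knockdowns (right), with dashed lines at 1.2-fold, blue for lower and red for higher. HNRNPA3 and SRRM3 are blue on both sides. On the left, 31 members (72.1%, against 32.2% of all genes tested) have an interval inside the dashed lines.

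The other parts of the splicing machinery, from lists written by hand, were described in the same fit. Over all genes tested, 14.5% were lower and 14.9% higher in siCARM1, 24.9% and 24% in siCHD4, 9% and 10.6% in siHDAC2, 18.2% and 15.7% in siGATAD2A, and 11.5% and 14.2% in siKDM1A, and the counts of each list below stand beside these shares. Of 62 tested genes of the core spliceosome, siCARM1 had 8 lower and 4 higher, siCHD4 3 and 7, siHDAC2 1 and 4, siGATAD2A 2 and 6, and siKDM1A 1 and 5. PHF5A, a subunit of the SF3B complex, rose in all 5 knockdowns, by 0.36 in siHDAC2, 0.52 in siKDM1A, 0.54 in siCARM1, 0.87 in siGATAD2A and 0.98 in siCHD4 (SE 0.0838 to 0.088, largest adjusted p = 0.00187). SNRPD3, a core Sm protein, was lower in siCARM1 (-0.68, SE 0.0527, adjusted p = 5.4e-12) and higher in siGATAD2A (0.64, SE 0.0493, adjusted p = 3.3e-12). Of the 12 kinases, phosphatases and import factors that act on SR proteins, siCARM1 had 1 lower and 1 higher, siCHD4 1 and 1, siHDAC2 0 and 0, siGATAD2A 1 and 0, and siKDM1A 2 and 0. For siHDAC2, 3 of the 12 had an unadjusted p under 0.05 and DESeq2 called 0. CLK2, a kinase of SR proteins, fell by 0.72 in siCHD4 (SE 0.0671, adjusted p = 7e-11).

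Of 47 tested other splicing regulators, siCARM1 had 3 lower and 4 higher, siCHD4 5 and 7, siHDAC2 2 and 3, siGATAD2A 3 and 3, and siKDM1A 2 and 7, beside all-gene shares of 9% to 24.9% in either direction. CELF2 fell by 1.63 in siCHD4 (SE 0.0726, adjusted p = 2.1e-18) and rose by 0.40 in siKDM1A (SE 0.061, adjusted p = 3.7e-06). The exon junction and nonsense-mediated decay genes, which remove the transcripts with a premature stop, numbered 15, with 2 lower and 1 higher for siCARM1, 2 and 4 for siCHD4, 1 and 0 for siHDAC2, 1 and 3 for siGATAD2A, and 0 and 0 for siKDM1A (3 at an unadjusted p under 0.05, and 0 called by DESeq2), beside the same shares. SMG5 was lower in siCARM1 (-0.30, SE 0.0431, adjusted p = 8.1e-07) and higher in siGATAD2A (0.52, SE 0.0423, adjusted p = 7.8e-12).

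Of 8 tested arginine methyltransferases, PRMT6 was higher in all 5 knockdowns, by 0.37 in siCHD4, 0.51 in siCARM1, 0.53 in siHDAC2, 0.64 in siKDM1A and 0.75 in siGATAD2A (largest adjusted p = 6.6e-06). In siCARM1, 2 of the 8 were lower, CARM1 among them, and 2 were higher, beside 14.5% and 14.9% of all genes tested.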

How the data were processed

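RNA-seq counts of 12 HEK293T libraries, 2 in each of 6 siRNA groups, were used. Per gene, the authors deposited unnormalized counts under Ensembl identifiers, in 3 columns (both strands together, then each strand), laid out as STAR writes them. The submitters' processing notes name STAR 2.7.10, CASAVA 1.4 and the build hg19, whereas the methods of the study name TopHat, HOMER and DESeq2 and do not describe the deposited counts. The annotation behind the counts is not given in the sources used here, and the 60660 identifiers are of a kind and number that may come from another build, so coordinates of genes were taken from GENCODE v44 mapped to GRCh37 by identifier (58662 matched).

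The column of the reverse strand was taken because the library kit keeps the strand. Depth was 30642632 to 44981503 fragments per library, and counts per gene limit the precision of low genes. Tests covered coding genes whose mean FPKM passed 0.5 in any group, with edgeR 4.0.16 (TMM, quasi-likelihood, 6 group means, R 4.3.3), and p-values were adjusted by Benjamini-Hochberg over the 12830 genes of a comparison. A gene was called if its adjusted p did not exceed 0.05 and its fold reached 1.2. FPKM was computed here from counts, exonic length and TMM library size. The self-test ran on simulated counts. Replicate differences had little in common between groups, with correlations from -0.142 to 0.136 over 15 pairs of groups. These values cannot tell whether libraries of the same replicate number were made together.

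Members are named with values if called the same way in at least 3 comparisons, among the 3 largest changes of a comparison, or in the TRA2, RBFOX and PTBP families. Others fall outside this rule and were named after their values were seen, among them SRSF1, SRSF6, SRSF8, SRSF9 and SRSF10. For differences between single knockdowns, the share of all genes called was not computed. Members and lists were chosen with earlier results of these data known. Alternatives were RLE size factors, DESeq2 1.42.0, a replicate block, only the groups compared, unstranded counts, an FPKM minimum of 1 or none, no fold minimum, a GC correction (loess, span 0.3), and each library left out. The result of 1 further gene list is not reported here.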

Additional observations from a re-analysis of the deposited data

Results flagged for a closer look

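The change of 2 members differed between siCARM1 and the mean of the other knockdowns by a test of the difference itself. HNRNPA3 was lower in siCARM1 than in the mean of the 4 NuRD knockdowns by 0.37 on the log2 scale (difference -0.37, SE 0.0363, adjusted p = 7.6e-10 by edgeR), with both siCARM1 libraries below all others. SRRM3 had a difference of -0.64 (SE 0.179, adjusted p = 0.00385), at 46 to 134 counts per library. Without siCARM1 replicate 2 the difference of SRRM3 was -0.38 (adjusted p = 0.153). Taken singly, its differences from siCHD4 (-0.95) and siKDM1A (-0.70) passed and those from siGATAD2A (-0.43, adjusted p = 0.111) and siHDAC2 (-0.47, adjusted p = 0.103) did not.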

How the results depend on the processing

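Of 23 called member values, 15 kept their call under every alternative and none reversed among 481 alternative values. Among these alternatives, no fold minimum could not lose a call, and many fits without 1 library left both compared groups whole. The replicate block left the counts of called members as they were in every comparison (5 lower and 1 higher in siCARM1, 3 and 1 in siCHD4, 2 and 2 in siHDAC2, 1 and 3 in siGATAD2A, 1 and 2 in siKDM1A, 35 in the F test), and RLE size factors and the fits of only the groups compared stayed within 1.5 times. With no fold minimum, members lower and higher were 11 and 6 in siCARM1, 17 and 6 in siCHD4, 4 and 5 in siHDAC2, 9 and 10 in siGATAD2A, 3 and 9 in siKDM1A, and 8 and 4 in the direct contrast. Both directions together were 39.5%, 53.5%, 20.9%, 44.2%, 27.9% and 27.9% of members in that order. Over all genes tested the shares were 46.7%, 65.7%, 35.4%, 51.5%, 42.3% and 48.1%. With no FPKM filter, 2 were higher in siCARM1, 5 lower and 2 higher in siCHD4, and 5 higher in siGATAD2A. With FPKM above 1, 3 were lower in siCARM1 and 1 in the direct contrast. Without regard to strand, 5 were lower in siCHD4 and 2 in siGATAD2A. With the GC correction, siCHD4 had 5 lower and 2 higher, siHDAC2 and siKDM1A had 0 higher each, and the direct contrast had 4 lower. DESeq2 gave 1 higher in siKDM1A. Leaving out 1 library at a time gave 1 to 2 higher and 4 to 5 lower in siCARM1, 1 to 3 higher and 2 to 5 lower in siCHD4, 1 to 3 higher in siHDAC2, 3 to 5 higher and 1 to 2 lower in siGATAD2A, 1 to 3 higher in siKDM1A, 0 to 1 higher in the direct contrast and 32 to 38 in the F test. Counts moved by over 1.5 times without siCTL replicate 1 (2 higher in siCARM1, 3 higher in siCHD4, 2 lower and 5 higher in siGATAD2A), siCTL replicate 2 (5 lower and 2 higher in siCHD4, 1 higher in siHDAC2 and in siKDM1A), siCARM1 replicate 1 (2 higher in siCARM1), siGATAD2A replicate 2 (2 lower in siGATAD2A), siHDAC2 replicate 1 (1 higher in siHDAC2) and siKDM1A replicate 2 (1 higher in siKDM1A). The siCHD4 count was 5 lower without siCHD4 replicate 1, either siHDAC2 replicate or siKDM1A replicate 1, and the direct contrast had 1 higher without siCHD4 replicate 2 or siKDM1A replicate 1. The cause of these shifts was not tested.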

Other observations

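Fragments counted on the opposite strand were 24.3% of those on SRRM4, 4.88% of those on SRRM3 and at most 13.8% of those on any tested member. HNRNPA1 has 74 named pseudogenes, the most of any member, and its counts lay between 11193 and 18015 per library with a ratio of highest to lowest FPKM of 1.27.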
